A study of Mus musculus with 5 samples.

Results

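The Reelin pathway and the migration genes that work beside it were examined as 10 loci in NEUROD2 ChIP-Seq data from embryonic mouse cortex. NEUROD2 is a neuronal basic helix-loop-helix transcription factor, and ChIP-Seq maps where it lies on chromatin. The loci are those of Reln, Lrp8, Vldlr, Dab1, Fyn, Crk, Crkl, Cdk5r1, Cdk5 and Pafah1b1, and each locus is the mm10 span of the longest GENCODE M21 transcript with 50 kb on either side. A peak belonged to a locus when its midpoint lay inside that window, and peaks that overlapped by at least 1 bp were merged into regions. The 10 loci held 167 of the 53833 merged regions in the genome.

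Chromatin came from cerebral cortex of BALB/c embryos at E14.5, with no genotype or treatment that differed between libraries, and the tissue of several litters was pooled. It was precipitated with 3 NEUROD2 antibodies, of which ab1 is a mouse antibody and the others, ab2 and ab3, are rabbit antibodies, and each gave 1 library. Peaks of ab1 were called against a GFP precipitate made with a mouse antibody, and peaks of ab2 and ab3 against a single GFP precipitate made with a rabbit antibody, so ab2 and ab3 share their control. The 3 libraries therefore measure 1 condition with no biological replicate and no contrast between groups, and the reads behind the peaks were not used here. The score of a peak is the p-value of the MACS call as −log10, multiplied by 10, with a minimum of 50 in ab1, and it is not scaled between libraries. The value 3100 recurs in 661 ab1 peaks and 62 ab2 peaks, and only 69 and 14 peaks score higher, so the score does not order peaks at 3100. Of all peaks, ab1 had 51841, ab2 35310 and ab3 7470, and of these 163, 117 and 31 lay in the 10 windows. A region with peaks of at least 2 antibodies is called shared. All confidence intervals (CI) are 95% Wilson intervals and cover counting error only.

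Reelin, the product of Reln, is a secreted glycoprotein that in the early cortex comes mainly from Cajal-Retzius cells of the marginal zone. It binds the lipoprotein receptors encoded by Lrp8 and Vldlr on migrating neurons, Src family kinases such as FYN then phosphorylate the adaptor DAB1, and phosphorylated DAB1 recruits CRK and CRKL. CDK5 with its activator, encoded by Cdk5r1, and the dynein regulator encoded by Pafah1b1 (Lis1) act beside this cascade in radial migration, and loss of several of these genes disturbs cortical layering.

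The TSS (transcription start site) of a gene is taken here as that of its longest transcript, and its other annotated starts count only where stated. Of the 9 members with a shared region, 7 had their highest-scoring one beyond 1 kb of any such protein-coding TSS. Of all shared regions 87.3% lay that far. For the other 2 members it lay within 1 kb of the TSS of a neighbouring gene. Regions were ranked by the sum of their scores over the antibodies. Ranked by ab1 alone, 6 members had it beyond 1 kb, since the Vldlr promoter then came first, and ranked by ab2 alone 8 did. These rankings by 1 antibody were added after the data were seen. An extended E-box lay within 5 bp of the midpoint in 8 of the 107 shared regions of these loci (7.48%, CI 3.84 to 14.1), against 6.19% of all shared regions, and 4 of those 8 were the highest-scoring regions of Reln, Lrp8, Fyn and Vldlr. The highest-scoring regions of the other 5 members had none there. The limit of 5 bp was not planned beforehand, no other limit was tried, and the Reln and Lrp8 motifs lie exactly on it. The 6.19% covers regions of all scores, so it is no measure for the highest-scoring ones. Basic helix-loop-helix factors bind E-boxes, CANNTG, and the extended E-box searched here, on either strand, was the hexamer CAGCTG, the hexamer CAGATG, its reverse complement CATCTG, or the hexamer CATATG, each with G or T as the next base. The central 200 bp of the highest-scoring shared region are printed for 7 members, and those of the Vldlr promoter region are shown for contrast. All are read from the plus strand of the mm10 reference (RefSeq GRCm38), which is of another mouse strain than the BALB/c embryos. Capitals mark these hexamers, with or without that next base. The stretches are chr5:22093212-22093411 for Reln, chr4:107817508-107817707 for Lrp8, chr10:39321514-39321713 for Fyn, chr19:27260146-27260345 and chr19:27217838-27218037 for Vldlr, chr16:17456971-17457170 for Crkl, chr11:80518672-80518871 for Cdk5r1 and chr4:103576736-103576935 for Dab1. The Reln and Dab1 stretches were added after their values were seen.
Reln intron 10: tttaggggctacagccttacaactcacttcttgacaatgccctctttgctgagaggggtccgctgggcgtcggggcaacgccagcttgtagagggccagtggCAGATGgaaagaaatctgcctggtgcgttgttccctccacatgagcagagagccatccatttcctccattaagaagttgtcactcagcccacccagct
Lrp8 intron 2: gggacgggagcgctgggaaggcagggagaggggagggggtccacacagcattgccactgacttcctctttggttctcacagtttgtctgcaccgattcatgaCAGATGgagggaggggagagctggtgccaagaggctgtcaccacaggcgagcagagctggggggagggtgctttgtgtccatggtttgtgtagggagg
Fyn upstream: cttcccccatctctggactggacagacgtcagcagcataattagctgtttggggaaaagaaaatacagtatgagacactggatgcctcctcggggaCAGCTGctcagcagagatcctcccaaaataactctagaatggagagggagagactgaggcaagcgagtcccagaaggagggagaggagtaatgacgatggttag
Vldlr downstream: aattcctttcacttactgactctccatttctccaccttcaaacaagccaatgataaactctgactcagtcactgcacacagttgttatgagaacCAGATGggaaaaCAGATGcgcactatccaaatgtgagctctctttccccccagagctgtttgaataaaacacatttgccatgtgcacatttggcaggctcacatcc
Crkl intron 1: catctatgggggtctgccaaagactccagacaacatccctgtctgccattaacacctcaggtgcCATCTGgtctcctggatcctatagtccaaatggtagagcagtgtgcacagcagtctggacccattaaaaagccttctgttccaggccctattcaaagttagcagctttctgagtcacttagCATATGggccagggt
Cdk5r1 downstream: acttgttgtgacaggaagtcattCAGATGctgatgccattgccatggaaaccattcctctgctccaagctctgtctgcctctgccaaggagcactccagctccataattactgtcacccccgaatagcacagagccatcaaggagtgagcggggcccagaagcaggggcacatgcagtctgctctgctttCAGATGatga
Dab1 upstream: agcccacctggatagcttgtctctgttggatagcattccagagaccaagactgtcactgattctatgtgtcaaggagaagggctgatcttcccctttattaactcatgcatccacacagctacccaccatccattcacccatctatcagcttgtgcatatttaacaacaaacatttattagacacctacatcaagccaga
Vldlr promoter: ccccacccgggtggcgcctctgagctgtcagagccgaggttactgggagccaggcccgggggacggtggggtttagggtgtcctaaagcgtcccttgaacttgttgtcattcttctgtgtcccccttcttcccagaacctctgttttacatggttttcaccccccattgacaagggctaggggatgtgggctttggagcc
In Reln and Lrp8 a single CAGATG sat 5 bp from the midpoint, and in Fyn a single CAGCTG sat 1 bp from it. The Vldlr region downstream of the gene had CAGATG on both sides of its midpoint, 3 bp before and 9 bp after it. In Crkl the nearest hexamer of the extended type lay 33 bp away. The Cdk5r1 stretch had CAGATG 74 bp before and 93 bp after its midpoint, neither with G or T as the next base on either strand, and so had no extended E-box. The Dab1 and Vldlr promoter stretches had no capitals at all. Beyond the centre, the whole Dab1 region of 2897 bp had 8 extended E-boxes and the whole Cdk5r1 region of 1497 bp had 3, which is 2.76 and 2.00 per kb. The median over all shared regions was 2.24 per kb, and 90.3% of them had at least 1.

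Of the 167 regions, 107 were shared (64.1%, CI 56.6 to 71.0), against 59.9% of all merged regions, and 29 had peaks of all 3 antibodies (17.4%, CI 12.4 to 23.8), against 13.3%. The interval of the first share includes the genome-wide value, and so does that of the second. Of the 60 regions of a single antibody, 53 were ab1 peaks and 7 were ab2 peaks, with no genome-wide split given beside them. At least 1 shared region was found at 9 of the 10 members, all but Crk, where 67.6% of the 21938 protein-coding genes had one in a window made the same way. A region with all 3 antibodies was found at 6 members, which were Reln, Dab1, Lrp8, Fyn, Cdk5r1 and Cdk5, against 26.7% of protein-coding genes. The windows differ in length from 104 kb at Cdk5r1 to 1161 kb at Dab1, so counts were also taken per 100 kb. Without ab1 the shared regions fell to 30 and without ab2 to 29, with no genome-wide count given beside them. Dab1 then had 9, Fyn 7, Reln 5, Lrp8 4 or 3, Cdk5r1 3 and Cdk5 2, and Vldlr, Crkl and Pafah1b1 had none.

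**Figure D1:**
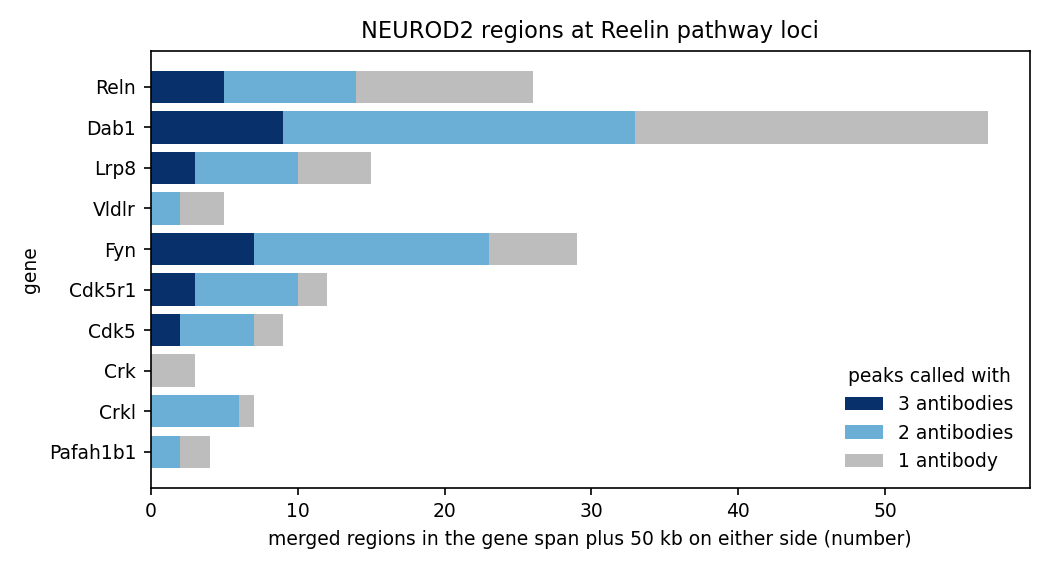
Number of merged NEUROD2 regions (x axis) in the window of each gene (y axis), with bars stacked by the number of antibodies that called a peak. Dab1 had the most regions, 57, of which 33 were shared, and Crk had 3, none of them shared.

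Per 100 kb of window the members had a median of 3.64 shared regions, against 0.950 over protein-coding genes, and 9 of 10 lay above that genome median. Lrp8, Fyn, Cdk5r1, Cdk5 and Crkl exceeded the mean plus 1 SD of all protein-coding genes, 3.28 per 100 kb, a density that 13.8% of genes exceed. Crkl lost this call with a peak score of at least 100, with 100 kb on either side, without ab1, without ab2, with regions of all 3 antibodies and with regions of any antibody. Cdk5 lost it with 10 kb on either side, where 1 of its 7 shared regions remained. A distance-weighted score was also computed, in which each shared region counts for the closest protein-coding TSS with a weight that falls exponentially over 5 kb. Its median was 0.915 over the members and 0 over protein-coding genes. Cdk5r1 (2.18) and Crkl (1.36) exceeded its threshold of 1.08, the mean plus 1 SD over genes with a region, and 4.24% of protein-coding genes do so. Lrp8 rounded to the same 1.08 but lay just under the threshold, and Fyn reached 1.01. With a decay length of 50000 bp Crkl lost the score call, and Fyn and Lrp8 gained it. With the closest TSS among genes of all types, Fyn gained it. Shared regions within 1 kb of the TSS were found at 6 members, Lrp8, Vldlr, Fyn, Cdk5r1, Cdk5 and Crkl, against 20.8% of protein-coding genes. With a peak score of at least 100 required, 4 of the 6 remained, without Vldlr and Crkl. The study had itself named Fyn, Cdk5r1, Dab1 and Lrp8 from these libraries, so the counts for those genes are not independent evidence. The promoter and score calls rested on ab1 and ab2 together, since without either of them Fyn alone kept a promoter region and Fyn alone passed the score threshold.

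**Figure D2:**
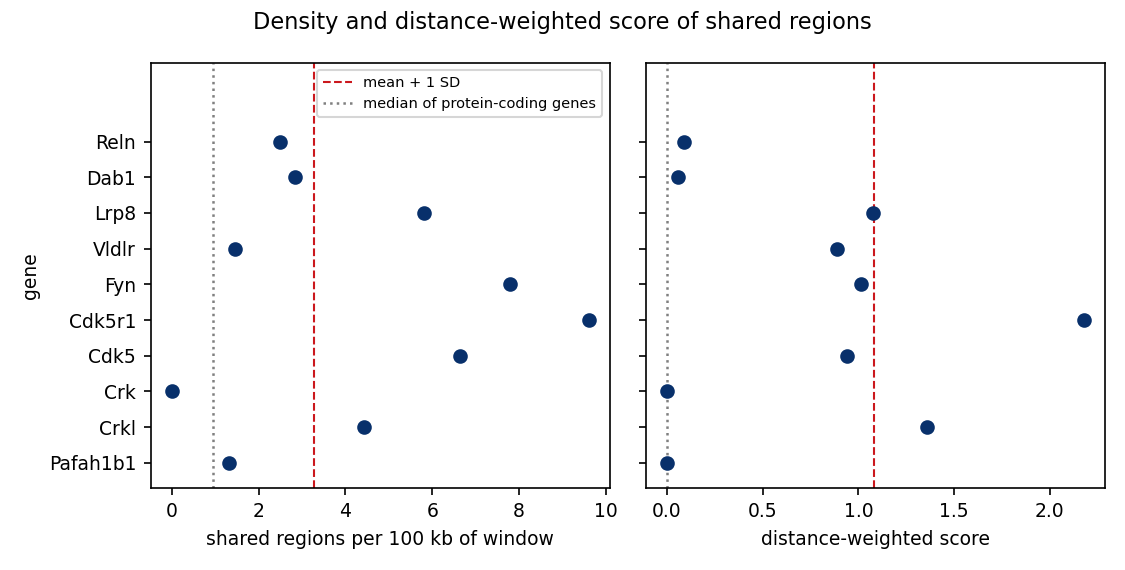
Shared regions per 100 kb of window (left) and distance-weighted score without unit (right) for each member (y axis), 1 point per gene. The dashed line is the mean plus 1 SD (3.28 and 1.08) and the dotted line the median of protein-coding genes (0.950 and 0). Cdk5r1 was highest on both scales, at 9.60 and 2.18.

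The ligand gene Reln lies on chromosome 5 (21884454 to 22344702, minus strand). It had 26 regions, of which 14 were shared and 5 had all 3 antibodies, or 2.50 shared regions per 100 kb, more than 76.6% of protein-coding genes. Of the shared regions, 12 lay in introns. The highest was in intron 10, 251 kb into the gene at chr5:22092849-22093775, with scores of 3100 in ab1, 1997 in ab2 and 201 in ab3. A second lay in intron 2 at chr5:22261984-22263016 with 2387, 1488 and 167. In both, all 3 antibodies called a peak, and ab1 scored highest and ab3 lowest. The intron 2 region and the next were chosen after their values were seen. A region of 2716 bp around coding exon 44 (chr5:21947136-21949851) scored 2233, 704 and 88.1. No shared region lay within 1 kb of the TSS, and the nearest was 13.7 kb into the gene, in intron 1 (chr5:22330581-22331471, ab1 75.1 and ab2 106). The promoter itself had an ab1 peak alone, 133 bp upstream with a score of 147, higher than 87.9% of regions that only ab1 called. Among protein-coding TSSs, that of Reln was the closest to 8 of the 14 shared regions and that of Slc26a5, the neighbour past the 3′ end, to 6. Among genes of all types, none of the 14 was closest to the Reln TSS. These counts rest on the TSS of the longest Reln transcript alone. Reln has 10 annotated TSSs, and that of another transcript, 210 kb into the gene, lay 6002 bp from a shared region.

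The receptor gene Lrp8 (chromosome 4, 107802261 to 107874167, plus strand) had 15 regions, 10 of them shared and 3 with all 3 antibodies. Its density of 5.82 shared regions per 100 kb exceeded that of 97.0% of protein-coding genes. Intron 2 held 5 of the 10. The strongest, chr4:107816727-107818488, lay 15.3 kb into the gene and scored 3100 in ab1, 1529 in ab2 and 172 in ab3. Its neighbour chr4:107819610-107824256, 4647 bp wide, scored 3100, 1265 and 135. Another region of intron 2, 28.0 kb into the gene, scored 1447, 764 and 50.4. These were the 3 regions of Lrp8 with ab3 peaks, and the second and the last of them were named after their values were seen. The strongest had 9 extended E-boxes over its whole width, or 5.11 per kb, against a median of 2.24 per kb over all shared regions. The wide neighbour had 1.51 per kb and the region at 28.0 kb had 2.09 per kb, both below that median. The promoter region, chr4:107801368-107804479 with its midpoint 663 bp inside the gene, scored 459 in ab1 and 198 in ab2 and had no ab3 peak. The PCR product that the study amplified from precipitated chromatin at Lrp8 maps to chr4:107801921-107802078, centred at −261 bp from the TSS and inside this promoter region. It does not cover the stronger regions of intron 2.

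The other receptor gene, Vldlr (chromosome 19, 27217357 to 27254231, plus strand), had 5 regions, 2 of them shared and none with all 3 antibodies. Its density of 1.46 per 100 kb exceeded that of 58.7% of protein-coding genes. The promoter region, chr19:27216459-27219417 with its midpoint 581 bp inside the gene, scored 551 in ab1 and 74.5 in ab2. The region 42.9 kb into the locus, past the gene's end at chr19:27259828-27260663, scored 527 and 129. The ab1 score of the promoter region was 7.40 times that of ab2, where 90% of shared regions near a protein-coding TSS had a ratio under 3.74. The 3 other regions of the window were weak ab1 peaks, with scores of 54.9, 64.5 and 82.7. Its promoter region was no longer shared with a peak score of at least 100 required.

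Dab1, the adaptor gene, spans 1061 kb of chromosome 4 (103619665 to 104680382, plus strand), and had the most regions of the 10, with 57 merged, 33 shared and 9 with all 3 antibodies. The count of 33 exceeded that of 99.9% of protein-coding genes, while the density of 2.84 per 100 kb exceeded that of 81.8%. No region of any antibody lay within 1 kb of its TSS, and the nearest, of ab1 and ab2, lay 14094 bp upstream. The strongest was chr4:103575388-103578284, 42829 bp upstream, with scores of 3100 in ab1, 2599 in ab2 and 330 in ab3. Within the gene, intron 1 held 6 shared regions, intron 2 held 4, intron 3 held 11, intron 4 held 2 and intron 6 held 3. A region of intron 1 at chr4:103881366-103882426 scored 2880, 1594 and 193. The strongest region of intron 3, chr4:104439381-104440599, scored 3120, 1272 and 261 and had a CAGCTG 24 bp from its midpoint. This region was chosen after its values were seen. A cluster of 5 shared regions lay past the 3′ end, 3 of them with all 3 antibodies. Among protein-coding TSSs, that of Dab1 was the closest to 12 of the 33 and that of C8b, a complement gene downstream, to 21. With genes of all types Dab1 was the closest to 1, and the weighted score of Dab1 was 0.0599. These values rest on the TSS of the longest Dab1 transcript alone. Dab1 has 7 annotated TSSs. That of another protein-coding transcript, 892 kb into the gene, lay 2401 bp from a shared region.

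Fyn, which encodes the Src family kinase (chromosome 10, 39369764 to 39565381, plus strand), had 29 regions, of which 23 were shared and 7 had all 3 antibodies. Its density of 7.78 per 100 kb exceeded that of 99.1% of protein-coding genes. Fyn was the one member whose promoter region had peaks of all 3 antibodies. That region, chr10:39369254-39371037 with its midpoint 382 bp from the TSS in the first exon, scored 2092 in ab1, 1387 in ab2 and 176 in ab3. A still stronger region lay 48150 bp upstream at chr10:39320446-39322781, with scores of 3100, 2776 and 331, and its centre overlaps an exon of the long noncoding RNA gene Gm48486. Its ab1 score equals that of the strongest Dab1 and Reln regions and of both strong Lrp8 regions, so the order of these 5 by summed score rests on ab2 and ab3. Inside the gene, intron 3 held 7 shared regions and intron 12 held 4. Among protein-coding TSSs, that of Fyn was the closest to 10 of the 23 and that of Traf3ip2, downstream, to 13. With genes of all types Fyn was the closest to 3.

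The adaptor paralogues Crk and Crkl differed. Crk (chromosome 11, 75679284 to 75706908, plus strand) had no shared region, the nearest being 58848 bp from its TSS, outside the window. Its window held 3 ab1 peaks, all close to other genes. They lay 287 bp from the TSS of Ywhae (score 478, higher than 99.8% of regions of ab1 alone), 40 bp from that of Inpp5k (77.1) and 1147 bp from that of Myo1c (83.6). Crkl (chromosome 16, 17451987 to 17487434, plus strand) had 7 regions, 6 of them shared and none with an ab3 peak, and its density was 4.43 per 100 kb. The highest, chr16:17456668-17457474 in intron 1, scored 648 in ab1 and 145 in ab2. The promoter region, chr16:17451276-17452742, had its midpoint 22 bp from the TSS and low scores of 75.7 and 50.1. Only these 2 regions were closest to the Crkl TSS, and with a peak score of at least 100 required, Crkl was no longer above the score threshold.

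Cdk5r1 encodes the regulatory subunit that activates CDK5 in neurons. It is a gene of 4.16 kb (chromosome 11, 80477023 to 80481184, plus strand) and had the highest density of the 10, with 10 shared regions in a window of 104 kb, or 9.60 per 100 kb, more than 99.7% of protein-coding genes. Among protein-coding genes all 10 were closest to its own TSS, and 18 shared regions of the genome were assigned to it in all. Among genes of all types 5 of the 10 were closest to Cdk5r1, and the other 5, all downstream, to C030013C21Rik. The promoter region, chr11:80476155-80478334, had its midpoint 222 bp into the only exon and scored 1051 in ab1 and 350 in ab2. Upstream, regions 2489 and 4537 bp from the TSS scored 171 and 210 in ab1 and 56.7 and 71.2 in ab2. Downstream, 7 shared regions lay between 11.0 and 41.7 kb from the TSS, outside the gene, and the farthest, chr11:80518024-80519520, had the highest sum, with 1453, 957 and 68.4. The other regions with ab3 peaks, named after their values were seen, lay 12.6 kb (1031, 557 and 67.6) and 31.9 kb (310, 66.6 and 57.8) from the TSS. The study's PCR product for Cdk5r1 maps to chr11:80477543-80477694 in the coding part of the exon, centred 596 bp from the TSS, and lies inside the promoter region.

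Cdk5, the kinase itself (chromosome 5, 24418241 to 24423530, minus strand), had 9 regions, 7 of them shared and 2 with all 3 antibodies, or 6.65 per 100 kb. Only 1 of the 7 was closest to the Cdk5 TSS, with protein-coding genes or genes of all types. That was the promoter region chr5:24423128-24424556, centred 312 bp upstream, with scores of 607 in ab1 and 294 in ab2. The other 6 were closest to the TSS of neighbouring genes.

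Pafah1b1, which encodes the dynein regulator LIS1 (chromosome 11, 74673949 to 74724670, minus strand), had 4 regions, and neither of its 2 shared regions was closest to its own TSS. The higher, chr11:74770528-74771492, scored 311 in ab1 and 61.2 in ab2 and lay 180 bp from the TSS of Mettl16, and the other lay 73 bp from that of Cluh. Neither remained as a shared region of the window with a peak score of at least 100, or with 10 kb on either side. At the Pafah1b1 promoter ab1 alone called a peak, 527 bp into the gene. Its score of 403 was higher than 99.6% of regions that only ab1 called.

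**Figure D3:**
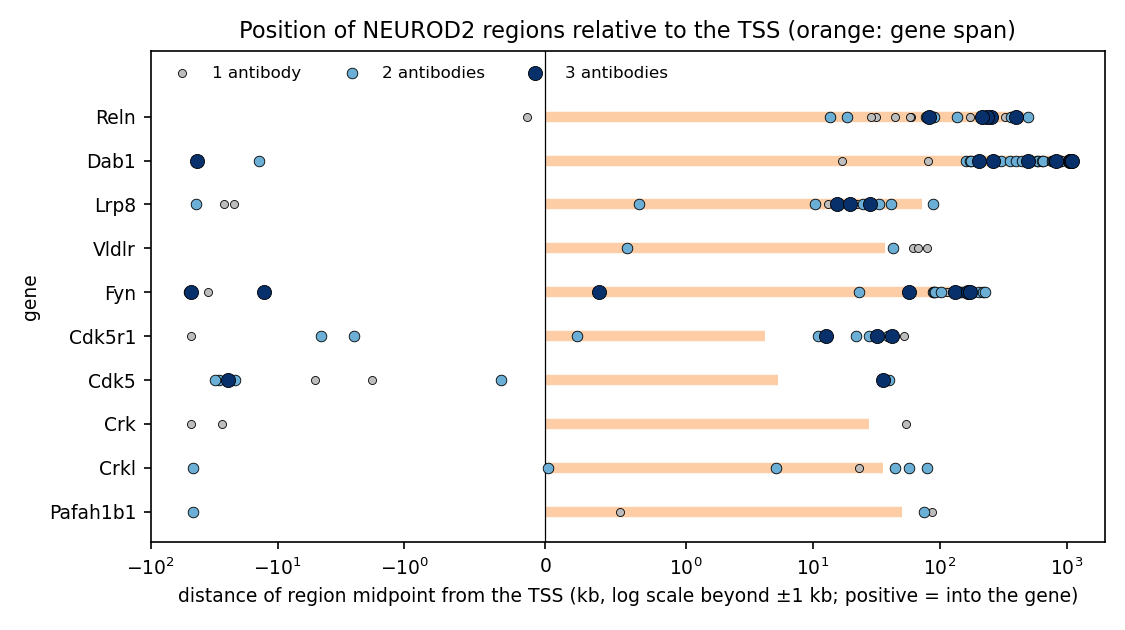
Distance of each region's midpoint from the TSS in kb (x axis, logarithmic beyond 1 kb on either side, positive into the gene) for each gene (y axis). Points are larger and darker with more antibodies, and orange bars are gene spans. Shared regions lay within 1 kb of the TSS at Lrp8, Vldlr, Fyn, Cdk5r1, Cdk5 and Crkl.

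Across the 10 loci, 64 of the 107 shared regions lay in introns, 4 in exons and 39 outside the gene. Of the 64 in introns, 26 lay at Dab1, 16 at Fyn and 12 at Reln. The member's own TSS was the closest protein-coding TSS for 53 of the 107, and the closest TSS of any gene type for 14. No genome-wide shares are given for these positions, so the counts describe these loci and mark no trait of them. Within 1 kb of any protein-coding TSS lay 15 (14.0%, CI 8.68 to 21.8), against 12.7% of all shared regions, and 9 of the 15 were promoters of neighbouring genes. Of those 15, the Fyn promoter and the region at Tmub1 in the Cdk5 window had peaks of all 3 antibodies (13.3%, CI 3.74 to 37.9), against 7.87% of all shared regions near a TSS. The Tmub1 region was chosen after its values were seen.

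The scores of the antibodies rose and fell together over the shared regions. Between ab1 and ab2 the log10 scores had a Pearson r of 0.892 and a Spearman rho of 0.829 over 107 regions, against an r of 0.885 over all shared regions. With ab3 the r was 0.729 for ab1 and 0.771 for ab2 over 29 regions. Regions of a locus share their libraries, and ab2 and ab3 share their control, so these are descriptions. The median score was 351 in ab1 and 168 in ab2 over the 107 regions, against 278 and 140 over all shared regions, and in the regions with ab3 peaks the ab3 median was 88.1 against 90.5. An ab1 score of at least 3100 was reached by 6 of the 107 (5.61%, CI 2.60 to 11.7), against 2.25% of all shared regions. They were the strongest regions of Fyn, Dab1, Reln and Lrp8, the wide neighbour in intron 2 of Lrp8 and the region in intron 3 of Dab1. The limit of 3100 was taken from these same peaks, and the study had already named Fyn, Dab1 and Lrp8 from them. Regions of a locus are not independent, so the interval is no test of enrichment.

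**Figure D4:**
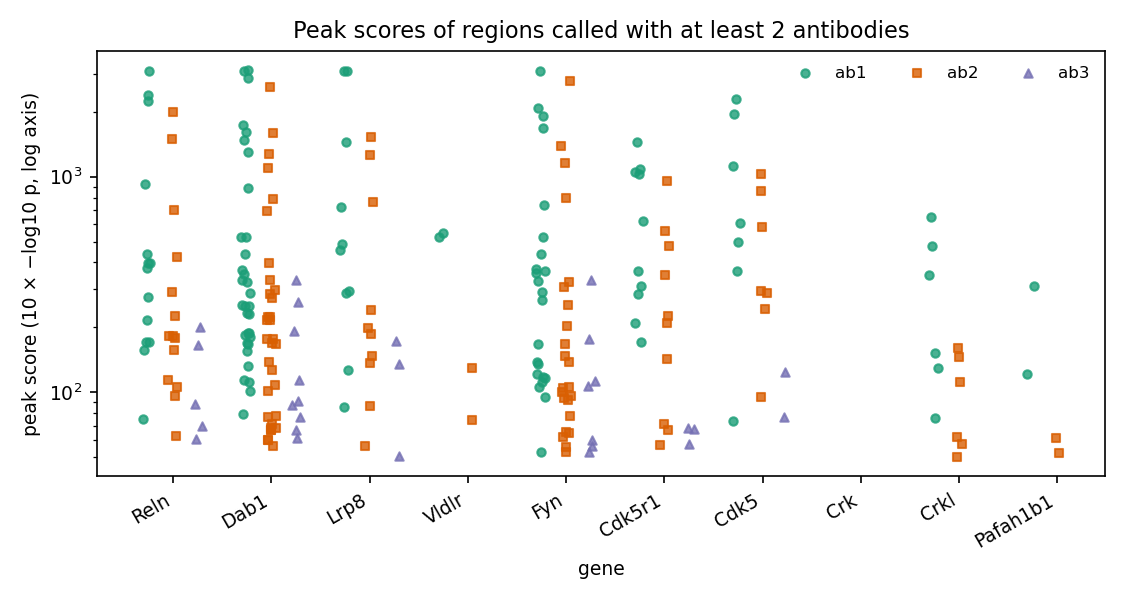
Score of each antibody's peak (y axis, 10 times −log10 of p, logarithmic) in every shared region, by gene (x axis). Scores are not scaled between antibodies. The highest ab1 scores, at least 3100, belong to Reln, Dab1, Lrp8 and Fyn, and Vldlr, Crkl and Pafah1b1 have no ab3 points.

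An extended E-box was present in the central 200 bp of 59 of the 107 shared regions (55.1%, CI 45.7 to 64.2), against 59.6% of all shared regions. Windows of 200 bp that start 1000 bp outside either end held it in 29.9% and 23.4%, against 22.3% on either side over all shared regions. For the 15 regions within 1 kb of a TSS the shares were 13.3% in the centres and 33.3% and 20% in the flanks, and their intervals overlap. Over all shared regions near a TSS they were level, at 20.8% in the centres and 21.1% and 20.7% in the flanks. Taken by the peaks of each antibody, the share was 60.1% in ab1, 53.8% in ab2 and 64.5% in ab3, or 59.5% ± 5.36 (SD, n = 3 antibodies), against 63.7% ± 7.61 over all peaks. Where a motif was present, its core lay a median of 31 bp from the midpoint, against 32 bp genome-wide. Regions with all 3 antibodies had it in 20 of 29 (69.0%, CI 50.8 to 82.7) and regions with 2 antibodies in 39 of 78 (50%, CI 39.2 to 60.8), and these intervals overlap. Over all shared regions the shares were 63.4% and 58.6%.

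Promoters and other regions differed in sequence. None of the 6 member promoter regions had an extended E-box in its centre. Of the 15 regions within 1 kb of a protein-coding TSS, 2 had one (13.3%, CI 3.74 to 37.9), those at Tmub1 and Thap7, while of the 92 others 57 did (62.0%, CI 51.7 to 71.2). Over all shared regions the shares were 20.8% and 65.3%. The median GC content of the central 200 bp was 67% near a TSS and 50% elsewhere. Over the whole width of the region, an extended E-box was present in 86.7% of the regions near a TSS and 92.4% of the others, against 75.9% and 92.4% of all shared regions. By hexamer, on either strand, CAGATG was in 46 of 107 centres (43.0%, against 43.1% of all shared regions), CAGCTG in 25 (23.4%, against 28.1%) and CATATG in 10 (9.35%, against 11.7%). CAACTG, which is outside the extended E-box and was singled out after its values were seen, was in 21 (19.6%, against 11.4%).

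**Figure D5:**
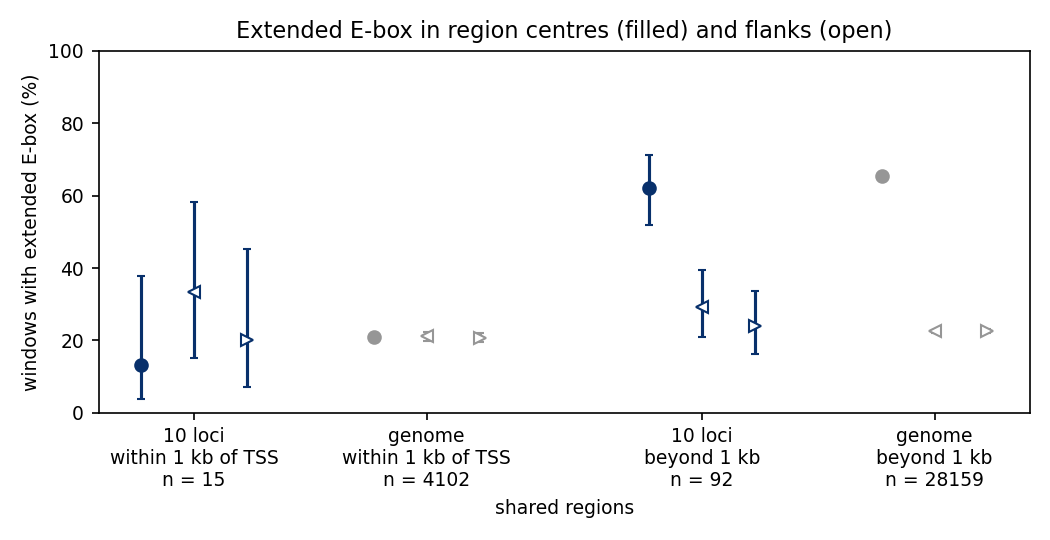
Share of windows with an extended E-box in percent (y axis) in region centres (filled circles) and left and right flanks (open triangles), for shared regions within and beyond 1 kb of a protein-coding TSS (x axis). Dark points are the 10 loci, grey points the genome, and bars are 95% Wilson intervals. At the loci the centres held it in 13.3% near a TSS and 62.0% elsewhere.

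A list of 28 other genes of the pathway and of radial migration was examined by the same rules. At least 1 shared region was found at 26 of them, a region with all 3 antibodies at 12, and a density above the threshold at 8. Over all protein-coding genes these shares were 67.6%, 26.7% and 13.8%. Their median density was 1.95 per 100 kb, against 0.950 over protein-coding genes. The 2 without a shared region, named after their values were seen, were Nde1 and Ndel1, which encode binding partners of LIS1. The score threshold was passed by 4 (4.24% of protein-coding genes do so), namely Socs7 (1.47), part of the machinery that degrades phosphorylated DAB1, Limk1 (1.41), a kinase of cofilin, Rapgef1 (1.13), the exchange factor bound by CRK proteins, and Pik3r1 (1.09), a regulatory subunit of phosphoinositide kinase. A shared region lay within 1 kb of the TSS at 13, against 20.8% of protein-coding genes. These were the same 4 with Rap1b, Nck2, Rnf7, Gsk3b, Mapt, Cdh2, Itgb1, Cdk5r2 and Apbb1. Cdk5r2, the paralogue of Cdk5r1, had 3 shared regions, or 2.92 per 100 kb, and its promoter region was centred 453 bp from the TSS.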

How the data were processed

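Chromatin of pooled E14.5 BALB/c cortex was precipitated with 3 NEUROD2 antibodies and 2 GFP antibodies, with 1 library each. The authors mapped reads to mm10 with Bowtie, and called peaks with MACS for each antibody, with the GFP precipitate of matching host as control. The deposited score of a peak is 10 times −log10 of the caller's p-value, as the authors' software wrote it. No processed file of the GFP libraries was used here, and neither were reads, so read depth was not analysed here. Motifs were read from the reference genome, and BALB/c variants were not examined.

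Overlapping peaks were merged and placed on mm10 with GENCODE M21. Shared regions, per-gene densities and weighted scores were computed over all 21938 protein-coding genes, and thresholds were the mean plus 1 SD. Unlike the study, no score of random positions was subtracted. No p-value was computed, since there is 1 condition. Percentiles give the share of protein-coding genes with a lower value. The extended E-box was counted with 200 bp windows. Calculations were tested on simulated data and run in Python 3.11.15 (pysam 0.24.0 for sequence, pandas 2.3.3 and numpy 2.4.6 for tables, scipy 1.17.1 for statistics, matplotlib 3.10.9 for plots).

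The members, gene lists and rules were chosen with earlier results of these data known. Regions were named by rule, as the highest summed score of each member, those within 1 kb of the TSS, the one nearest the TSS, and the 5 highest of all. Other regions given by position or scores were chosen after their values were seen. Sequence was printed by rule for the highest-scoring region of the 6 members with the highest weighted score and for 1 promoter, outside UTR exons, except that the region of Cdk5, one of the 6, is not reported here. Reln and Dab1 were added. Alternatives were a minimum peak score of 100, a larger overlap, other windows, decay lengths, TSS sets and motifs, regions of any antibody or of all 3, and each antibody left out.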

Additional observations from a re-analysis of the deposited data

How the results depend on the processing

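Regions with all 3 antibodies fell from 29 to 13 with a peak score of at least 100 and to 19 with 10 kb on either side of the gene. Members above the score threshold rose from 2 to 4 with a peak score of at least 100 (Cdk5, Cdk5r1, Fyn and Lrp8), and fell to 1 (Fyn) with regions of all 3 antibodies, as did the 6 members with a promoter region. With any CANNTG the regions with a motif rose from 59 to 92 of 107, with no genome-wide share given for this motif. Leaving out each antibody in turn gave 29 to 107 shared regions, 1 to 6 members with a promoter region and 1 to 2 members above the score threshold. An extended E-box was in 19 of 30 shared regions without ab1, 19 of 29 without ab2 and 59 of 107 without ab3. The lowest counts came without ab1 or ab2, where every shared region needs a peak of ab3, the library with the fewest peaks. The count of regions with all 3 antibodies has no value without an antibody. Over 17 settings, 42 of 56 comparisons of the main counts stayed within 1.5 times the value reported, and 40 of 70 counts for single members did. Genome-wide shares are not given under the altered settings. Whether all genes and regions change alike was therefore not tested.

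No paired analysis was possible because there is 1 condition and no group to compare. A list of peaks gives no signal outside peaks, so binding below the calling threshold was not measured. The score is not scaled between libraries, and 1 library per antibody gives no biological error. The closest TSS is a position and was not tested against expression.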
